A study of Populus tremula x Populus alba with 20 samples.

Results

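In apical buds of hybrid poplar, 115 of the 31823 genes counted separated every library of 4 TEMPRANILLO-like overexpressor lines from both wild-type libraries at both harvests of the study. Of these, 27 were higher and 88 were lower in the overexpressors. A gene was taken when all 8 overexpressor libraries lay above both WT libraries at each harvest, or below both at each harvest. At each harvest the ratio of the lower to the higher of the mean overexpressor and mean WT levels also had to be at most 0.8, and the mean over all 20 libraries had to reach 1 CPM. CPM is the count of a gene divided by the total of its library and multiplied by 1000000. The members were therefore chosen by the overexpressor-to-WT difference, and their folds are given as a description with no test.

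The plants were Populus tremula x Populus alba of an INRA clone used for transformation, either wild type (WT) or overexpressing a TEMPRANILLO-like protein. TEML1ox here stands for the lines TEML1_1ox and TEML1_2ox, and TEML2ox for TEML2_1ox and TEML2_2ox. All plants grew under long days at 22 °C and then had 8 weeks of short days, which stop growth and set the bud. Buds were taken at that point (SD8) or after 2 more weeks of short days at 4 °C (CH2). Every group carried a growth temperature of 22 °C and a harvest at ZT 7 h, where ZT counts hours from lights on. Each line and WT gave 2 replicates per harvest, each a pool of plants or buds, so that 10 groups of 2 made up 20 libraries. The promoter driving the constructs is not given in the sources used here. No line transformed without an overexpressed gene was among the samples, so overexpression and transformation itself cannot be told apart. Buds hold several tissues, and in such bulk samples fewer cells of a type and less RNA per cell cannot be told apart.

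TEMPRANILLO proteins are plant transcription factors of the RAV family, with an AP2 and a B3 DNA-binding domain, known from Arabidopsis as repressors of flowering that act on FT and on gibberellin synthesis genes. In poplar, FT-like genes and gibberellins take part in growth cessation, bud set and the release of buds from dormancy. Short days bring the apical bud into dormancy, and a period of chilling releases it. A gene that differs from WT at both harvests is one whose difference was present in the short-day bud before cold and again after it. The sample labels give no measure of how dormant the buds were.

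The files pair no gene identifier with a name. Genes are therefore given by identifier, the overexpressed genes could not be checked by name, and bud markers and lists of dormancy, hormone and cold genes could not be applied. Library totals ran from 35779227 to 39352645 counts, so 1 CPM stood for about 36 to 39 counts. Both TEML2_2ox libraries at SD8 stood apart from the other overexpressor libraries at many genes. For most named members where that line stood apart, the fold without it is also given.

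At a single harvest the same separation and fold were met by more genes. At SD8, 338 genes were higher (1.44% of the 23438 genes with a mean of at least 1 CPM) and 765 lower (3.26%). At CH2, 954 were higher (4.07%) and 796 lower (3.4%). The 27 genes higher at both harvests (0.115%) made up 7.99% of the SD8 list and 2.83% of the CH2 list. The 88 genes lower at both (0.375%) made up 11.5% and 11.1% of the corresponding lists. No library entered both harvests, although the same lines did. In the opposite sense, 13 genes were higher at SD8 and lower at CH2, and 9 were lower at SD8 and higher at CH2. The balance of directions depended on the scaling of the libraries. With totals scaled by TMM, a factor that sets aside the most divergent genes, 38 genes were higher and 62 lower, so the higher genes went from 23.5% of 115 to 38% of 100. All 27 higher members met the rule on that scale too, as did 62 of the 88 lower ones. The scaling moved the median log2 ratio of the pooled overexpressors to WT over all genes by 0.03 at SD8 and by less than 0.01 at CH2. The lines moved unequally. At SD8 the shift was 0.076 in TEML2_1ox, 0.056 in TEML1_2ox and 0.034 in TEML1_1ox, but -0.040 in TEML2_2ox. At CH2 the line shifts ran from -0.016 in TEML2_2ox to 0.006 in TEML1_2ox.

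**Figure D1:**
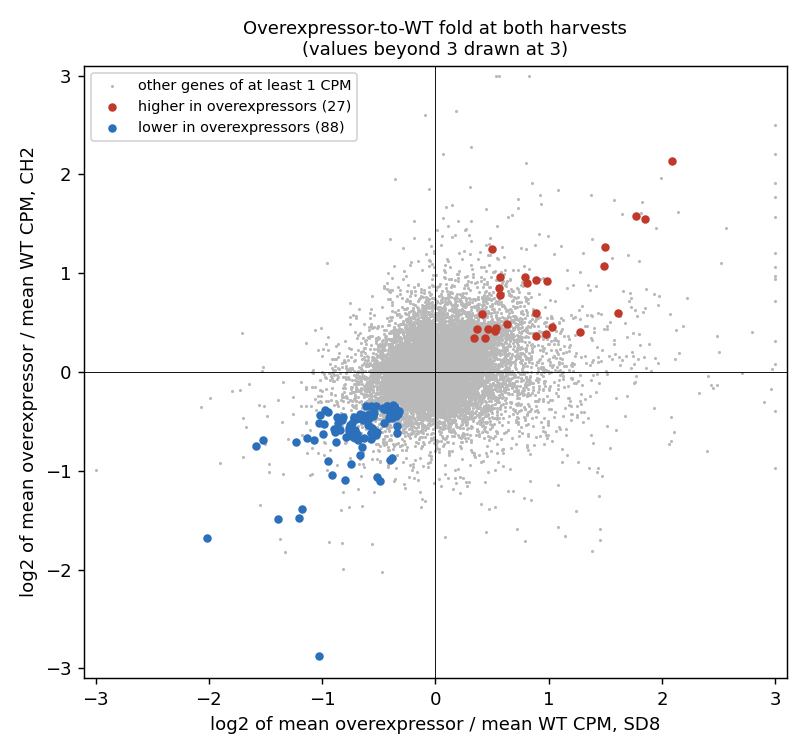
Log2 of the mean overexpressor to mean WT CPM for each gene of at least 1 CPM, SD8 on the x axis and CH2 on the y axis, with the 27 higher members in red, the 88 lower members in blue and other genes in grey. The members lie in the upper right and lower left corners because the rule placed them there. Grey points in those corners are genes whose libraries overlapped or whose fold was too small.

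The 27 higher members had a median fold of 1.75 at SD8 (range 1.27 to 4.27) and of 1.52 at CH2 (1.27 to 4.38). The 88 lower members stood at a median of 0.629 of the WT level at SD8 (range 0.247 to 0.799) and 0.687 at CH2 (0.136 to 0.793). A difference of at least 2-fold at both harvests was present in 5 higher and 5 lower members, so most members differed from WT by a modest amount. The separation was also narrow in many. The nearest overexpressor and WT libraries differed by a median of 1.13-fold at SD8 and 1.12-fold at CH2 in the higher members, and by 1.09-fold and 1.11-fold in the lower ones. The gap reached 1.1-fold in 14 of 27 higher and 43 of 88 lower members at SD8, and in 16 and 45 at CH2. The separation is easier to meet with fewer WT libraries. With the first WT library of SD8 left out it took 49 higher and 158 lower genes, with the second 135 and 144, and with the first of CH2 44 and 135. At the threshold, the higher member just inside had folds of 1.27 at both harvests, and the gene just outside had 1.247 and 1.45. The lower member just inside stood at 0.7986 and 0.760 of WT. The fold condition left out 24 higher and 171 lower genes whose libraries separated at both harvests.

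The higher members had a median of 19.1 CPM over all libraries (range 1.68 to 976), against 10.2 CPM in the lower members (1.07 to 397). A mean under 10 CPM was found in 29.6% of the higher members, in 48.9% of the lower members and in 34.1% of all genes of at least 1 CPM, whose median was 18.2 CPM. Counts from genes of different length are not comparable as levels, so these figures describe only how well each group was counted. One member had a library with 0 counts, PtXaAlbH.15G109800.v5.1, described next.

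Among the higher members, PtXaAlbH.15G109800.v5.1 had the largest fold when each gene was ranked by its smaller harvest. Without TEML2_2ox its rank was 3, with a smaller-harvest fold of 2.19, behind PtXaAlbH.09G096800.v5.1 at 2.79 and PtXaAlbH.15G033900.v5.1 at 2.65. At SD8 the WT libraries had 0.919 and 1.22 CPM, and the overexpressor libraries ran from 1.38 through a median of 2.07 to 11.5 CPM. The overexpressor mean of 4.56 ± 4.29 CPM (SD, n = 8) was 4.27 times the WT mean of 1.07 ± 0.211 CPM (SD, n = 2). Both TEML2_2ox libraries, at 10.9 and 11.5 CPM, were far above the other 6, and without that line the fold was 2.19. At CH2 the WT libraries held 0 and 9 counts, and the overexpressor libraries 15 to 32. The fold of 4.38 there became 2.19 without WT replicate 1, the library at 0. The next highest SD8 value was 5.24 CPM, in TEML1_1ox replicate 1, and at CH2 all libraries stood under 1 CPM.

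PtXaAlbH.15G033900.v5.1 was the next of the higher members in that ranking. Its WT libraries at SD8 had 17.99 and 21.98 CPM, and the overexpressors ran from 26.02 through a median of 61.9 to 114 CPM, with a mean of 68.1 ± 33.3 (SD, n = 8). The groups did not overlap, and the fold was 3.41, or 2.65 without TEML2_2ox. At CH2 the gene was almost off in every library. WT held 12 and 6 counts (0.316 and 0.161 CPM), and the overexpressors ran from 0.469 to 1.14 CPM, a fold of 2.98.

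The higher member with the highest mean CPM was PtXaAlbH.06G007700.v5.1. At SD8 its WT libraries agreed closely, at 268 and 270.2 CPM, and the overexpressors ran from 410.2 through a median of 528 to 1118 CPM. The highest value came from TEML1_2ox replicate 1, whose partner replicate had 431 CPM. At CH2 WT had 1076 and 1105 CPM and the overexpressors 1244 to 1611 CPM with a median of 1449. The fold was 2.42 at SD8 and 1.33 at CH2, where the mean of the overexpressors was 1449 ± 109 CPM (SD, n = 8) and that of WT 1091 ± 20.4 (SD, n = 2). PtXaAlbH.04G055800.v5.1, the second by mean CPM, stood at 126 and 176 CPM in WT at SD8. In the overexpressors it stood at 212 to 359 CPM with a median of 261. At CH2 it had 149 and 160.0 CPM in WT and 169 to 280.0 CPM in the overexpressors with a median of 241. In this gene the overexpressor level was 1.85-fold and 1.51-fold that of WT, and TEML2_2ox did not stand out.

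Among the lower members, PtXaAlbH.08G088900.v5.1 had the largest difference by the same ranking. Its WT libraries had 21.7 and 13.9 CPM at SD8 and 30.2 and 30.5 CPM at CH2. The overexpressors ran from 1.27 through a median of 2.68 to 11.2 CPM at SD8, and from 3.41 through a median of 7.32 to 20.6 CPM at CH2. The 4 highest of these values, 11.2 and 8.57 CPM at SD8 and 20.6 and 17.0 CPM at CH2, were all from TEML2_1ox. The mean overexpressor level was 0.247 of the WT level at SD8 and 0.311 at CH2. Without the TEML2_1ox line the SD8 ratio was 0.145. The difference was thus smallest in 1 line at both harvests.

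PtXaAlbH.08G053100.v5.1, the second of the lower members and at rank 3 without TEML2_2ox, was a low gene. It stood at 3.23 and 4.27 CPM in WT and at 0.294 to 2.40 CPM in the overexpressors at SD8, with a median of 1.46. At CH2 it stood at 0.526 and 0.723 CPM in WT (20 and 27 counts) and at 0.0787 to 0.483 CPM in the overexpressors. Its ratio to WT was 0.381 and 0.356, nearly the same at the 2 harvests while the mean level in WT was 3.75 ± 0.737 CPM at SD8 and 0.625 ± 0.140 CPM at CH2 (SD, n = 2 each).

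The lower members with the highest mean CPM were PtXaAlbH.06G058900.v5.1 and PtXaAlbH.06G125900.v5.1. The first had 496 and 420.4 CPM in WT at SD8 against 94.9 to 346 CPM in the overexpressors with a median of 249, and 692 and 680 CPM in WT at CH2 against 417 to 519 CPM with a median of 465. Its ratio to WT was 0.506 at SD8 (0.593 without TEML2_2ox) and 0.693 at CH2. The second had 346 and 292 CPM in WT at SD8 against 103 to 246 CPM with a median of 177, and 354 and 341 CPM at CH2 against 217 to 288 CPM with a median of 252. Its ratios were 0.546 at SD8 (0.614 without TEML2_2ox) and 0.730 at CH2. In both genes the 2 lowest SD8 libraries were those of TEML2_2ox, and at CH2 that line lay among the others.

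**Figure D2:**
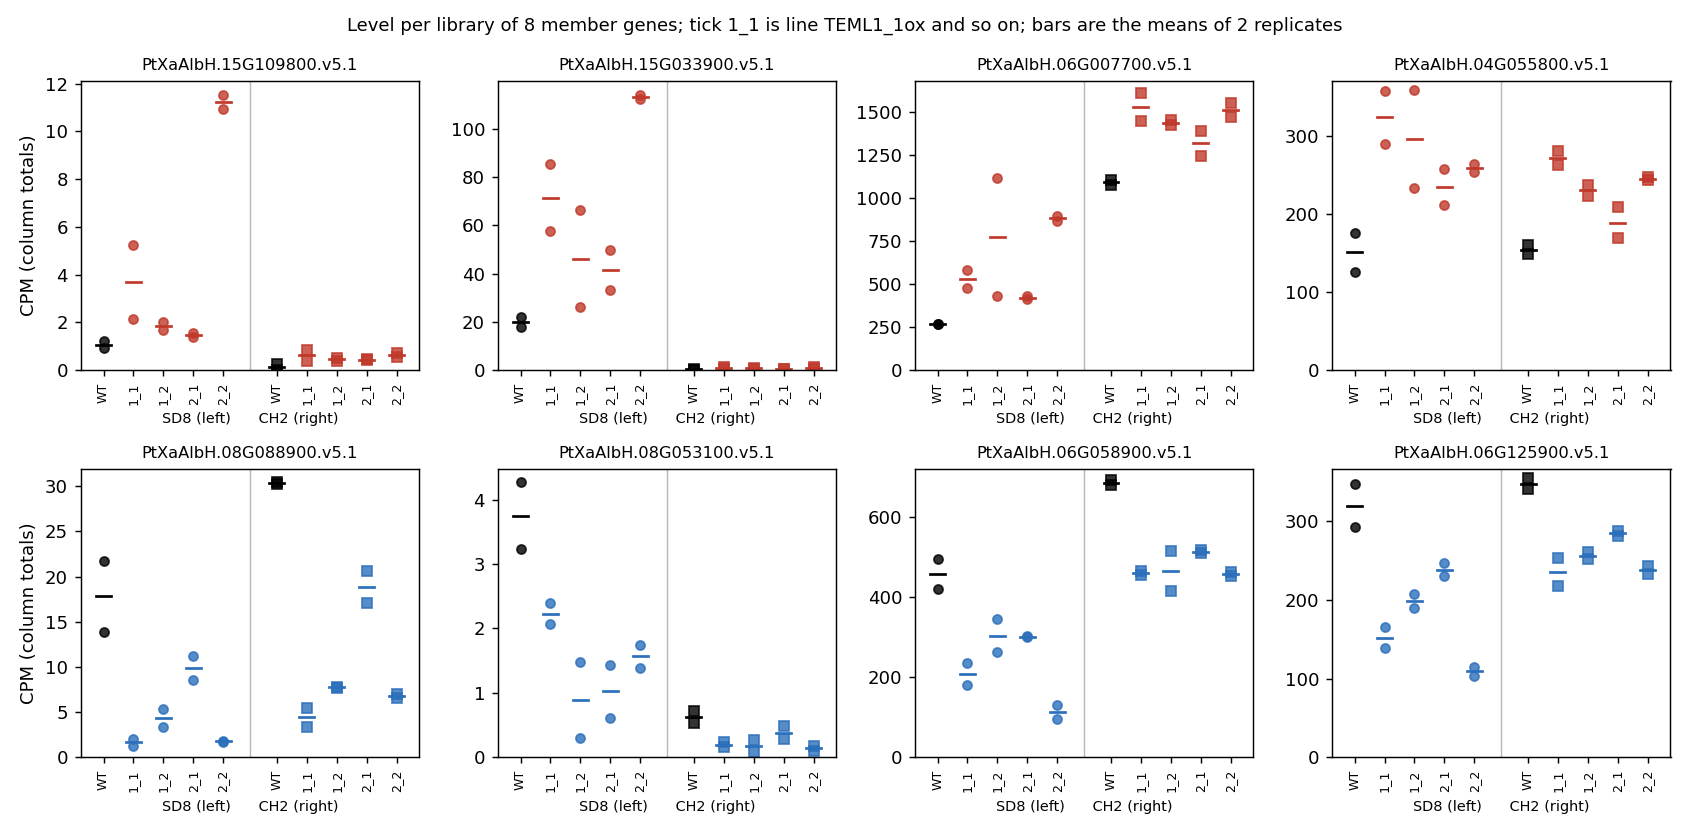
CPM per library of the 4 higher members (red, top row) and 4 lower members (blue, bottom row) described in the text, with WT in black, SD8 as circles on the left of each panel and CH2 as squares on the right, and short bars for the mean of 2 replicates. Ticks name the lines without their prefix and suffix (1_1 for TEML1_1ox). In each panel the WT points lie outside the range of the coloured points of the same harvest, and PtXaAlbH.15G109800.v5.1 shows the distance of TEML2_2ox from the other lines at SD8.

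The lines differed in how far they stood from WT. At SD8 the median log2 ratio to WT over the 27 higher members was 0.98 in TEML2_2ox, 0.69 in TEML1_1ox, 0.65 in TEML1_2ox and 0.50 in TEML2_1ox. Over the 88 lower members it was -1.02, -0.60, -0.60 and -0.48 in the same order. TEML2_2ox was the line farthest from WT in 22 of the 27 higher and 70 of the 88 lower members. It stood apart beyond the members too. On column totals it had the highest of the 4 line means in 47.1% of all genes of at least 1 CPM and the lowest in 24.5%. The TMM shift at SD8 was downward in this line alone, and these shares were not retaken on that scale. At CH2 the medians in that order were 0.66, 0.87, 0.58 and 0.45 for the higher members and -0.62, -0.59, -0.51 and -0.45 for the lower ones. The lines lay closer together than at SD8 for the lower members, but spanned nearly as much for the higher ones. TEML1_1ox was farthest at CH2 in 18 of the 27 higher members and in 34 of the 88 lower ones, where TEML2_2ox followed with 26. Over all genes TEML1_1ox had the highest line mean in 34.1% and the lowest in 30.4%, and TEML2_2ox the lowest in 16.2%. These values had entered the rule and are a description. TEML2_1ox had the smallest median difference in each of these 4 sets. Over all genes of at least 1 CPM the median log2 ratio of a line to WT lay between -0.07 and 0.02.

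**Figure D3:**
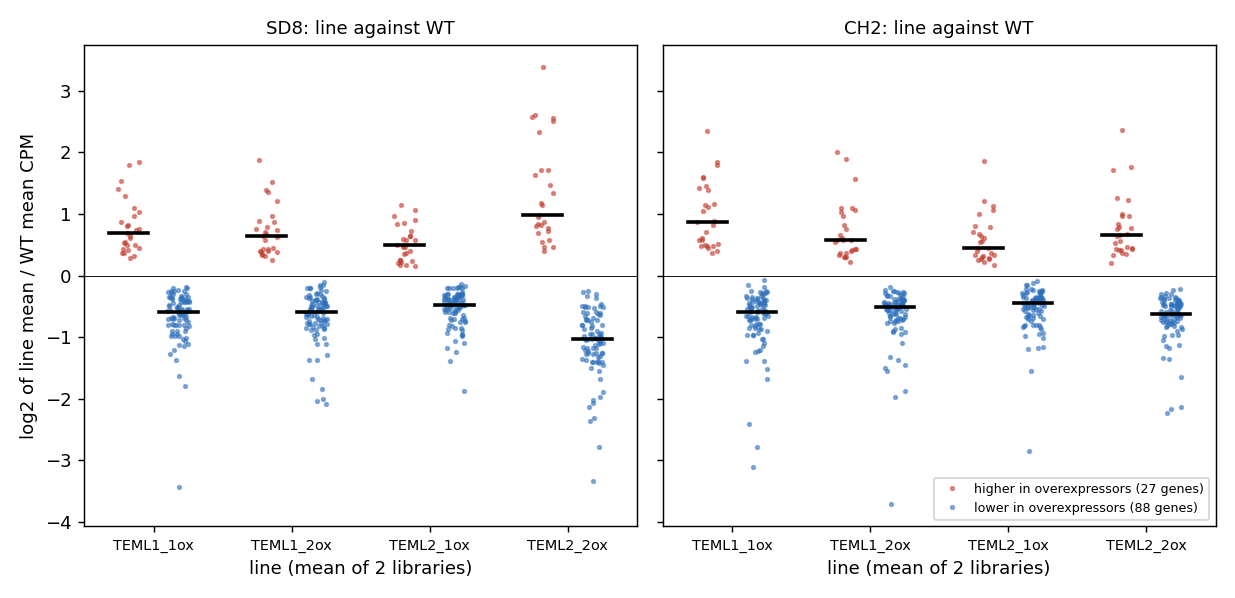
Log2 of the line mean to the WT mean CPM for each member in each overexpressor line at SD8 (left) and CH2 (right), with the 27 higher members in red, the 88 lower members in blue and black bars at the medians. The bars for TEML2_2ox at SD8, at 0.98 and -1.02, are the farthest from 0, and TEML2_1ox has the bars nearest to 0.

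The overexpressor lines were set against each other with edgeR over all genes of each harvest. Every overexpressor library had entered the rule, through the separation from WT and through the mean fold, so counts of members called in these contrasts are not independent of how the members were chosen. Between TEML2_2ox and the mean of the other 3 lines at SD8, 61 of the 115 members passed an adjusted p under 0.05. Of the 27 higher members, 15 were higher still in TEML2_2ox (55.6%, against 11.6% called higher among all genes of at least 1 CPM) and 0 were lower. Of the 88 lower members, 45 were lower still in TEML2_2ox (51.1%, against 9.52% called lower) and 1 was higher. A gene with a large difference in this line met the separation and the fold more easily, so these shares describe the members and are no test of them. The count fell to 19 without TEML2_2ox replicate 1 and to 24 without replicate 2, where the remaining library stands alone and is assumed to vary like the other lines.

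PtXaAlbH.15G109800.v5.1 showed the largest of these differences. It had 10.9 and 11.5 CPM in TEML2_2ox and 1.38 to 5.24 CPM in the 6 other libraries with a median of 1.85, a log2 difference of 2.28 ± 0.25 (SE, edgeR adjusted p = 0.000324). PtXaAlbH.01G318100.v5.1 had 67.7 and 75.2 CPM against 15.4 to 28.2 CPM with a median of 22.0, a log2 difference of 1.60 ± 0.16 (edgeR adjusted p = 0.000252). In this gene the TEML2_2ox libraries stood far above the other lines, and the SD8 fold over WT of 2.83 was 1.82 without them.

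On the lower side, PtXaAlbH.15G098200.v5.1 had 1.77 and 2.45 CPM in TEML2_2ox against 3.69 to 7.95 CPM in the other lines with a median of 5.75, a log2 difference of -1.53 ± 0.25 (edgeR adjusted p = 0.00252, and 0.0505 without TEML2_2ox replicate 2). PtXaAlbH.04G077900.v5.1 had 6.05 and 9.29 CPM against 15.6 to 29.2 CPM with a median of 20.5, a log2 difference of -1.52 ± 0.17 (edgeR adjusted p = 0.000425). In both genes the WT libraries, at 8.30 and 13.4 CPM and at 31.7 and 33.0 CPM, were the highest of the harvest. Their ratios to WT at SD8 were 0.457 and 0.544 with all lines, and 0.544 and 0.647 without TEML2_2ox.

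At CH2 the same contrast called 0 of the 115 members in edgeR, against 0.0343% of all genes. At an unadjusted p under 0.05 there were 16 members, against 1802 of all 25696 genes tested. DESeq2 called 1 member and limma-voom 0. The median log2 difference of TEML2_2ox from the other lines went from 0.41 to 0.04 in the higher members and from -0.54 to -0.09 in the lower ones. The difference between the harvests was not tested.

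**Figure D4:**
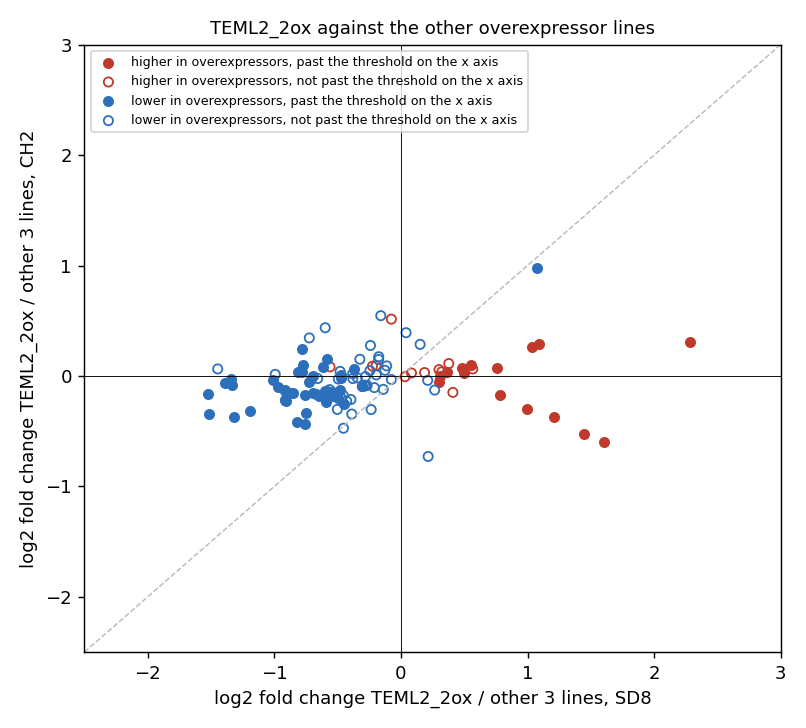
Log2 fold change of TEML2_2ox over the mean of the other 3 overexpressor lines for the 115 members, SD8 on the x axis and CH2 on the y axis, with higher members in red, lower members in blue, and filled points for an edgeR adjusted p under 0.05 at SD8. Red filled points lie to the right and blue ones, with 1 exception, to the left, while the spread on the y axis is small and no member passed at CH2.

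To see this line without its part in the choice of genes, the rule was also applied to the other 3 lines alone. Setting TEML2_2ox against those genes was decided after the data had been seen. It then took 30 higher and 91 lower genes, of which 25 and 77 were among the 115. At SD8 both TEML2_2ox libraries, not used in this choice, lay above both WT libraries in all 30 of the higher genes, against 36.2% of all genes of at least 1 CPM. They lay below both in 83 of the 91 lower genes (31.1% of all genes), overlapped WT in 4 and lay above both in 4. They lay above all 6 libraries of the other lines in 18 of the 30 (25.9% of all genes) and below all 6 in 43 of the 91 (9.22%). At CH2 they were above both WT libraries in 27 of the 30 (33% of all genes) and below both in 89 of the 91 (27%). There they lay beyond all 6 other libraries in 0 of the 30 (4.77% of all genes lay above) and 1 of the 91 (2.63% lay below). The same WT libraries served for the choice and for this comparison, so a deviation of WT would appear in both. All of these shares used column totals. At SD8 TMM scaling moved the median log2 ratio to WT over all genes by -0.040 in TEML2_2ox and upward in the other 3 lines. The shares were not retaken on that scale.

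Which harvest had the larger difference was also counted without TEML2_2ox, the line farthest from WT at SD8 in most members. TEML1_1ox, farthest at CH2 in 18 of the 27 higher members, was not left out in turn. With all lines, 16 of the 27 higher members had the larger log2 difference at SD8 and 11 at CH2. Without TEML2_2ox the numbers were 7 and 20. For the lower members they were 57 at SD8 and 31 at CH2 with all lines, and 49 and 39 without it. The median ratios to WT without that line were 1.58 at SD8 and 1.63 at CH2 for the higher members, and 0.680 and 0.704 for the lower ones.

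Between TEML1ox and TEML2ox at SD8, 0 of the 115 members passed in edgeR, against 0.00427% of all genes. At an unadjusted p under 0.05 there were 11 members, against 1456 of all 26947 genes tested. DESeq2 called 1 member, limma-voom 0, and edgeR 5 when each line was its own group. At CH2 25 members stood at an unadjusted p under 0.05, against 2829 of all 25696 genes tested. DESeq2 called 5 members, limma-voom 1, and edgeR 6 when each line was its own group. Shares over all genes were taken for the main edgeR fits only. In the main edgeR fit at CH2 1 member passed, against 0.111% of all genes. It was PtXaAlbH.09G006100.v5.1, a lower member, with 32.3, 32.7, 35.8 and 36.9 CPM in TEML1ox, 25.5, 25.9, 26.1 and 27.6 CPM in TEML2ox, and 44.2 and 45.8 CPM in WT. All TEML1ox libraries lay between those of TEML2ox and WT. The log2 fold change was 0.39 ± 0.06 (SE, edgeR adjusted p = 0.0274). The call was lost in 8 of the 10 fits that left out 1 library (all but those without TEML1_1ox replicate 1 or TEML1_2ox replicate 1), without TEML2_2ox and in the fit blocked on replicate number, where edgeR adjusted p ran from 0.0590 to 0.130. The log2 change between harvests differed between the constructs at 0 members in edgeR, DESeq2 and limma-voom, against 0% of all genes in edgeR. At an unadjusted p under 0.05 there were 13 members, against 1761 of all 27337 genes tested. With each line as its own group edgeR called 2 members.

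Within TEML1ox, the lines TEML1_1ox and TEML1_2ox differed at 0 members in edgeR at SD8 (0.0256% of all genes) and at 0 at CH2 (0.0771%). At an unadjusted p under 0.05 there were 17 and 27 members, against 2692 of 26947 and 4356 of 25696 genes tested. DESeq2 called 8 and 5, and limma-voom 0 and 0, with no share over all genes taken for either. The SD8 count was 5 without TEML1_2ox replicate 2 and 1 without either WT replicate. The CH2 count was 6 without TEML1_1ox replicate 2 and 1 without either TEML2_1ox replicate.

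Most members also changed between the harvests, as most genes did. In the overexpressors, 98 of the 115 passed the edgeR test of CH2 against SD8, as did 22237 of all 27337 genes tested. Of the 27 higher members, 19 fell (70.4%, against 41.7% of all genes of at least 1 CPM) and 5 rose (18.5%, against 42.3%), with a median log2 fold change of -0.85. Of the 88 lower members, 45 rose (51.1%) and 29 fell (33.0%), with a median of 0.31. The median over all genes of at least 1 CPM was 0.00. In WT, 69 members passed, as did 16776 of all 27337 genes tested. Of the higher members, 14 fell (51.9%, against 33.4% of all genes) and 4 rose (14.8%, against 33.2%). Of the lower members, 29 rose (33.0%) and 22 fell (25%), shares close to or under those of all genes. The WT test had 2 libraries per harvest and the overexpressor test 8, which bears on the counts. All of these libraries had entered the rule, so the shares describe the members and are no test of them. The harvests differ by cold, by 2 weeks of time and by count table, which cannot be told apart.

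The direction of change was shared by WT and the overexpressors wherever both passed, as it was for nearly all genes. The changes in overexpressors and WT differ, up to scaling, by the difference between the 2 harvest folds. The rule placed both folds on the same side of WT, so this agreement is a description and no test of the members. Of the higher members, 4 rose and 14 fell in both, and of the lower members 29 rose and 22 fell in both, with 0 members called in opposite directions. Of all genes of at least 1 CPM, 31.8% rose in both, 31.6% fell in both and 0.158% were called in opposite directions. A called drop of at least 4-fold in the overexpressors was seen in 7 of the 27 higher and 8 of the 88 lower members, against 6.75% of all genes of at least 1 CPM. A called rise of at least 4-fold was seen in 0 and 9, against 1.92%. The minimum of 1 CPM was a mean over both harvests and could be met through SD8 alone. Mean levels at CH2 were under 1 CPM in overexpressors and WT in, for example, PtXaAlbH.15G109800.v5.1, PtXaAlbH.15G033900.v5.1, PtXaAlbH.01G318100.v5.1, PtXaAlbH.11G100000.v5.1, PtXaAlbH.14G037100.v5.1 and PtXaAlbH.08G053100.v5.1. All genes met the same minimum, and these counts are a description.

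PtXaAlbH.15G033900.v5.1 fell most among the members. Its overexpressor libraries went from 26.02 to 114 CPM at SD8 to 0.469 to 1.14 CPM at CH2, a log2 difference of -6.27 ± 0.34 (SE, edgeR adjusted p = 2.72e-12). In WT it changed by -6.06 ± 0.79 (edgeR adjusted p = 2.58e-06, but 0.0691 in limma-voom). PtXaAlbH.01G318100.v5.1 went from 15.4 to 75.2 CPM to 0.254 to 0.872 CPM in the overexpressors, a change of -5.70 ± 0.31 (edgeR adjusted p = 2.97e-12), and from 9.03 and 15.3 to 0.237 and 0.188 CPM in WT, a change of -5.51 ± 0.70 (edgeR adjusted p = 1.99e-06, but 0.0572 in limma-voom). As the rule required, both of these genes were higher in the overexpressors than in WT at each harvest. At CH2 they stood near the floor of the counts, where WT held 18 and 16 counts in all. Their CH2 means were 0.710 and 0.509 CPM in the overexpressors and 0.238 and 0.212 CPM in WT. They met the minimum mean of 1 CPM through SD8 alone.

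PtXaAlbH.11G031000.v5.1 and PtXaAlbH.08G145700.v5.1, both lower members, rose most. The first went in the overexpressors from 0.592 to 1.79 CPM at SD8 to 5.95 to 14.2 CPM at CH2, a log2 difference of 3.37 ± 0.22 (edgeR adjusted p = 5.45e-11), and in WT from 2.84 and 4.73 CPM to 15.4 and 20.8 CPM, a change of 2.56 ± 0.41 (edgeR adjusted p = 2.51e-05). The second went in the overexpressors from 5.13 to 8.34 CPM to 47.2 to 63.1 CPM, a change of 3.32 ± 0.07 (edgeR adjusted p = 3.48e-17), and in WT from 9.74 and 10.01 CPM to 67.4 and 81.5 CPM, a change of 3.22 ± 0.14 (edgeR adjusted p = 1.02e-11). In both genes WT stayed the highest at each harvest.

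**Figure D5:**
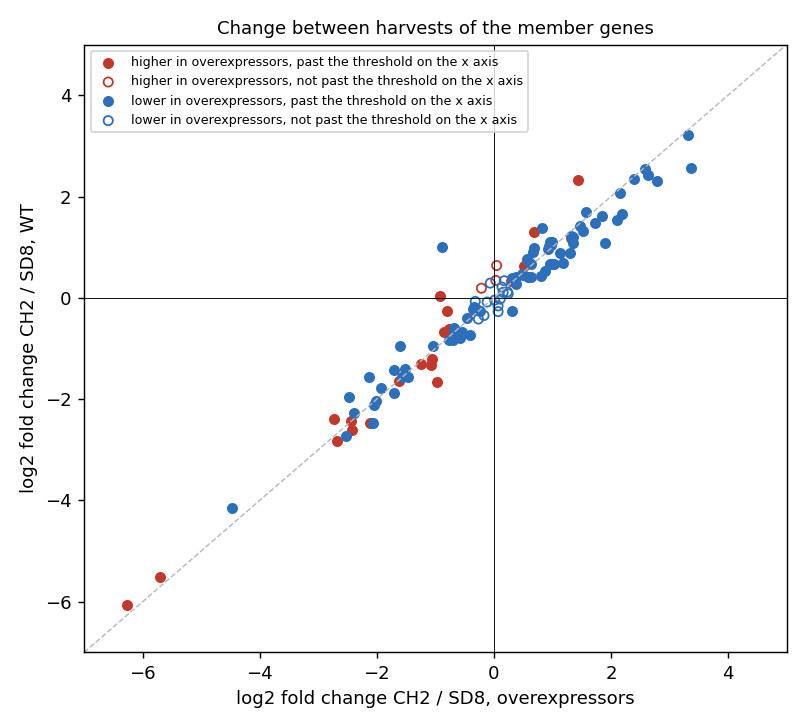
Log2 fold change from SD8 to CH2 of the 115 members, in the overexpressors on the x axis and in WT on the y axis, with higher members in red, lower members in blue, filled points for an edgeR adjusted p under 0.05 in the overexpressors, and a dashed line where both are equal. Points lie along the dashed line between -6.27 and 3.37 on the x axis.

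The 2 digits after the prefix of an identifier and the number that follows were read as a chromosome and an order, which is the form of these names and was not checked against a genome. Higher members came from 13 of the 19 digit classes and lower members from all 19, with at most 3 higher and 8 lower members in any 1. The class 01 held 6.96% of the members and 11.8% of the genes of at least 1 CPM, and the class 11 held 7.83% and 3.78%. In all, 5 pairs of members of the same direction lay within 5 places of each other in the order of identifiers, 3 higher and 2 lower, and were picked out after their values were seen. PtXaAlbH.04G055700.v5.1 and PtXaAlbH.04G055800.v5.1, next to each other, had folds of 1.97 and 1.85 at SD8 and 1.30 and 1.51 at CH2. PtXaAlbH.01G318100.v5.1 and PtXaAlbH.01G318500.v5.1 had folds of 2.83 and 2.81 at SD8 and 2.40 and 2.11 at CH2. In both genes the TEML2_2ox libraries were far above the other lines at SD8, at 195 and 176 CPM in PtXaAlbH.01G318500.v5.1. Without that line the smaller of the 2 harvest folds was 1.82 in the first gene and 2.07 in the second. PtXaAlbH.15G098100.v5.1 and PtXaAlbH.15G098200.v5.1, also adjacent, stood at 0.614 and 0.457 of WT at SD8 and 0.720 and 0.630 at CH2. In both genes the TEML2_2ox libraries were the lowest at SD8, and PtXaAlbH.15G098200.v5.1 stood at 0.544 of WT there without that line. The third higher pair and the second lower pair had ratios to WT of 1.29 to 1.85 and of 0.546 to 0.773. Where neighbours are near-identical copies, reads may have been divided between them in the counting, which was not tested here.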

How the data were processed

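The deposited tables, 1 for each harvest, held raw counts of reads for the same 31823 genes. The submitters' processing notes name HISAT2. Libraries came from a strand-specific mRNA kit, per the labels' protocols. The sources used here do not give the counting program, its strand setting, the genome build or any filter. One WT column name carried an extra digit and matched no other sample. The labels call the replicates biological but differ on what a replicate pooled, so p-values measure the spread between these libraries. Every replicate pair differed by more than sampling noise (chi-square per degree of freedom of 6.75 to 29.6).

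The members and gene lists were chosen with earlier results of these data known. CPM used column totals. Tests used edgeR 4.0.16 in R 4.3.3 on the counts: filterByExpr, TMM scaling, the quasi-likelihood F test and Benjamini-Hochberg adjustment over all genes tested (27337 for change between harvests, 26947 within SD8 and 25696 within CH2), at 0.05. Change between harvests came from 1 fit of 20 libraries in 6 groups, constructs from 3 groups and lines from 5 groups within a harvest, with WT in every fit. Pooled lines count as independent libraries. All 115 members passed the filter. The SE is the log2 fold change over the square root of F.

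Without names, the rule for named genes took 2 members per direction by the smaller of the 2 harvest folds and 2 by mean CPM. It also took up to 2 per direction per test, among members past the threshold with no overlap. Alternatives were RLE scaling, DESeq2 1.42.0, limma-voom (limma 3.58.1), other filters, thresholds and groupings, a replicate block and each library left out. The tests without the TEML2_2ox line, its comparison over genes chosen without it, and the ranks of members without it were added after seeing the data.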

Additional observations from a re-analysis of the deposited data

Results flagged for a closer look

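For 14 member genes named in the report, the 4 libraries of each construct at each harvest were screened for a library far from the other 3, which made 56 sets. Chance flags about 1 set in 20, and 4 were flagged. PtXaAlbH.15G109800.v5.1 stood at 5.24 CPM in TEML1_1ox replicate 1 at SD8, against 1.68 to 2.14 CPM in the other TEML1ox libraries. PtXaAlbH.15G033900.v5.1 stood at 1.144 CPM in TEML2_2ox replicate 2 at CH2, against 0.469 to 0.509 CPM in the others of TEML2ox. PtXaAlbH.06G007700.v5.1 stood at 1611 CPM in TEML1_1ox replicate 2 at CH2, against 1424 to 1452 CPM. PtXaAlbH.15G098200.v5.1 stood at 1.129 CPM in TEML1_2ox replicate 1 at CH2, against 0.872 to 0.893 CPM.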

How the results depend on the processing

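The number of members followed the thresholds. It was 51 higher and 259 lower with no fold condition, 11 and 28 at 1.5-fold, and 5 and 5 at 2-fold. With 1 library left out it ran from 27 to 135 higher and from 86 to 158 lower. The largest counts came without a WT library: 49 higher and 158 lower without SD8 replicate 1, 135 and 144 without SD8 replicate 2, 44 and 135 without CH2 replicate 1, and 38 and 116 without CH2 replicate 2. The smallest lower count, 86, came without TEML2_2ox replicate 1 at SD8. At most 1.5-fold changes came from the TMM scale, no CPM minimum, a minimum of 5 CPM and no TEML2_2ox line.

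For the 115 members, leaving out 1 library gave 96 to 99 calls for change between harvests in the overexpressors, 56 to 74 in WT, 19 to 70 for TEML2_2ox at SD8 and 0 at CH2, 0 between constructs at SD8 and 0 to 2 at CH2, 0 for the difference in change between constructs, and 0 to 5 and 0 to 6 between the TEML1ox lines at SD8 and CH2. With DESeq2 the calls were 1 between constructs at SD8 and 5 at CH2, 1 for TEML2_2ox at CH2, and 8 and 5 between the TEML1ox lines. With each line as its own group they were 5 and 6 between constructs and 2 for the difference in change. With no low-count filter 1 member passed between the TEML1ox lines at CH2. Shares over all genes were not taken for these alternatives. At an adjusted p under 0.01, 35 members passed for TEML2_2ox at SD8 and 0 between constructs at CH2, where 0 also passed with the replicate block and without TEML2_2ox. The block moved no other count of calls by over 1.5 times. Deviations of same-numbered replicates correlated at -0.301 to 0.269 within a harvest. This range cannot show whether some lines shared a batch, and the main fits used no block. The causes were not tested. Of the 319 alternative values for single genes in these tests, 14 lost their call and 0 reversed. For PtXaAlbH.15G109800.v5.1 no CH2 fold could be had without WT replicate 2, which left WT at 0 counts. At CH2, folds of members under 1 CPM rest on few counts.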
